A study of Homo sapiens with 22 samples.

Results

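The genes described here belong to the mesenchymal state of neuroblastoma, and each was followed across every library of the series. They are the transcription factors PRRX1, SNAI2, TWIST1, ZEB1, FOSL1, FOSL2 and MEOX2, the transcriptional co-activators YAP1 and WWTR1 (TAZ), and the intermediate filament gene VIM. The members were chosen by name, as regulators and a marker of that state, and each was matched by symbol to its Ensembl row: 10 genes of the 63677 rows of each table. Of these, 8 reached an RPKM of at least 1 in at least 2 monolayer libraries and could be tested there, and 5 could be tested in spheres (TWIST1, ZEB1, YAP1, FOSL2 and VIM). PRRX1 and MEOX2 did not pass that filter in any table. RPKM is the number of reads per kilobase of gene, scaled to the assigned reads of the library, so levels of different genes are compared here per length.

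The libraries are total RNA of human neuroblastoma cell lines. SH-SY5Y cells, a neuroblast-like line, carried lentiviral shRNAs kept under puromycin selection: a scrambled control or hairpins aimed at either CASC15-003 (called sh003) or CASC15-004 (called sh004), with sh1 and sh2 as different hairpins of each. The long noncoding RNA gene CASC15 lies in a neuroblastoma susceptibility region. Monolayers were grown in 10% serum (day 0) or collected after 7 days of retinoic acid, given in the labels as 10 mM, in medium with 1% serum by one protocol and 10% by another (day 7); agent, serum and time in culture cannot be told apart. There were 3 control, 3 sh003 and 2 sh004 libraries at day 0 and 2, 3 and 2 at day 7. Spheres, grown in sphere-forming medium, gave 1 control, 2 sh003 and 2 sh004 libraries. KELLY cells, another neuroblastoma line, received a scrambled or a SOX9 siRNA, 1 library each, and the protocol gives collection 48 hours after transfection. The titles number 3 batches: control day 0 has batches 1, 2 and 3, control day 7 has 1 and 2, sh003 has batches 1, 2 and 3 at day 0 and 1 and 2 at day 7, and every sh004 monolayer is of batch 2. Nothing in the labels says that libraries of a group are separate cultures, so p-values measure the spread between these libraries, which may be technical. A pair of sh003 libraries (the day 7 library of sh1 batch 2, the day 0 library of sh2 batch 1) carry a culture tag opposite to their titles and were grouped by title.

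Neuroblastoma cells occur in an adrenergic state, held by factors such as HAND2 and GATA3, and in a mesenchymal state, in which factors such as PRRX1, SNAI2, TWIST1 and members of the AP-1 and YAP families are active. SNAI2, ZEB1 and TWIST1 are known from epithelial-mesenchymal transition, where the SNAI and ZEB proteins bind E-box sequences and repress junction genes. YAP1 and WWTR1 are held outside the nucleus by the Hippo kinases and act through TEAD factors, often at sites shared with AP-1 dimers that contain FOSL1 or FOSL2. VIM is the filament protein of mesenchymal cells. In retinoic acid cultures SH-SY5Y cells are known to take on neurite-bearing forms.

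Depth ranged from 11.9 to 62.1 M assigned reads a library. All 10 neuroblastoma markers reached an RPKM of 1 in a library of each of the 3 tables, 2 of 6 Schwann cell markers did so in monolayers, 0 of 5 blood and endothelial markers in any table, and PECAM1 and HBB had no read in any library. Of 9 stromal fibroblast markers, 9 reached it in monolayers, 8 in spheres and 5 in KELLY. Their summed RPKM was 88.4 to 369 in control day 0, 189 to 286 in control day 7, 208 to 402 in sh003 day 0, 305 to 498 in sh003 day 7, 101 to 104 in sh004 day 0 and 95.3 to 310.5 in sh004 day 7. COL3A1 alone made up 52.6 to 380.1 RPKM of these sums, and the part of the fibroblast markers in the results was not tested. The CASC15 row stands for the whole gene and cannot show the knockdown of one transcript: it read 1.31 to 2.38 RPKM in control day 0, 1.57 to 2.65 in sh003 day 0 and 1.14 to 1.16 in sh004 day 0. In all 3 day 0 pairs sh003 read above the control of its batch (1.95 and 1.52 in batch 1, 1.57 and 1.31 in batch 2, 2.65 and 2.38 in batch 3). At day 7 control read 3.26 to 3.33, sh003 2.08 to 3.38 and sh004 1.31 to 1.48, and in spheres control read 2.15, sh003 1.63 and 2.46 and sh004 1.59 and 1.6. The word knockdown below stands for the hairpin in the label. In KELLY, SOX9 read 5.61 RPKM with the control siRNA and 0.974 with the SOX9 siRNA.

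The hairpin target sequences, as the labels give them, are shown because every knockdown comparison rests on them and because a match to a member would bear on its reading. They are written 5′ to 3′.
sh003 sh1: ctagcactgacctccttcatt
sh003 sh2: ctttccatcagccaacaatat
sh004 sh1: caggctgttcccagggattta
sh004 sh2: taggaataccttacatccaat
Each 21-base sequence matched in full only CASC15 among 206694 transcripts of the reference annotation, the sh003 sequences in CASC15-205 and CASC15-206 and the sh004 sequences in CASC15-202 and CASC15-204. In the 83 transcripts of the 10 members, the longest exact run shared with them was 9, 12, 10 and 10 bases, in the order printed.

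The members spanned a wide range of levels. TWIST1, a basic helix-loop-helix factor, and VIM were the most abundant over the 15 monolayers, at 110.0 ± 43.2 and 109 ± 57.1 RPKM (mean ± SD, n = 15). YAP1 followed at 8.49 ± 3.27, ZEB1 at 7.49 ± 1.10, FOSL2 at 6.75 ± 4.73 and SNAI2 at 4.52 ± 2.39. YAP1, ZEB1 and FOSL2 lie within one another's spread, as do FOSL2 and SNAI2, and TWIST1 and VIM. FOSL1 stood at 1.79 ± 0.995 and WWTR1 at 0.900 ± 0.919, so the more abundant co-activator of the pair was YAP1 in every monolayer library. PRRX1, a homeobox factor at the head of the mesenchymal circuit, had 0 to 19 reads a library (at most 0.0812 RPKM) and MEOX2, another homeobox factor, had 1 read in 1 library and none in the other 14, for which 3 reads would have stood for 0.0316 to 0.101 RPKM. The highest level of a member was 1.64 times its lowest for ZEB1 and 18.6 times for WWTR1, with the other 6 tested members between 4.12 and 8.08 times.

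**Figure D1:**
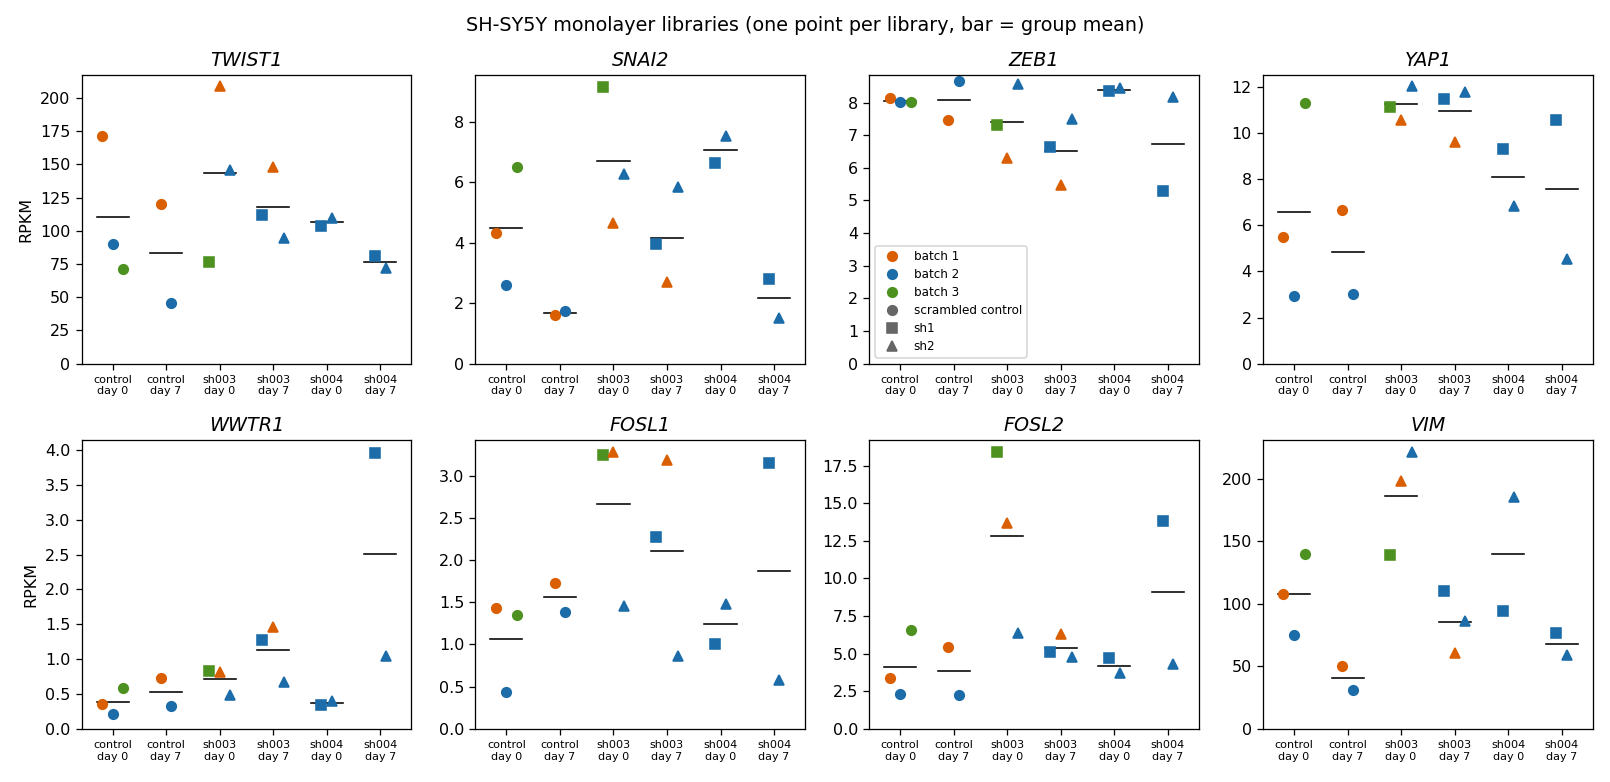
RPKM of the 8 members with measurable levels in the 15 SH-SY5Y monolayer libraries, by shRNA and day; each point is one library, coloured by batch and shaped by hairpin, and the bar is the group mean. VIM and SNAI2 are lower at day 7 in each shRNA group's mean, and ZEB1 stays between 5.28 and 8.67 RPKM.

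Day 7 against day 0 showed lower VIM, SNAI2 and TWIST1 and higher WWTR1 within each of the 6 pairs of the same shRNA and batch. No member was called in any of the 3 day comparisons without the batch in the fit. With the batch as a block, TWIST1 fell in control cells and SNAI2 fell in sh004 cells. In these bulk libraries fewer cells of a type and less RNA per cell cannot be told apart.

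VIM read 108, 75 and 139.7 RPKM in control day 0 (batches 1, 2 and 3) and 50.6 and 30.7 in control day 7 (batches 1 and 2). In sh003 cells it read 139 (sh1 batch 3), 198 (sh2 batch 1) and 222 (sh2 batch 2) at day 0 against 111 (sh1 batch 2), 60.6 (sh2 batch 1) and 86.3 (sh2 batch 2) at day 7. In sh004 cells the day 0 libraries read 94.2 and 186 (sh1, sh2) and the day 7 libraries 76.3 and 58.8. In each shRNA group every day 7 library was below every day 0 library. The fitted change on the log2(RPKM + 0.5) scale was -1.39 (SE 0.38, limma adjusted p = 0.134) in control, -1.13 (SE 0.34, adjusted p = 0.101) in sh003 and -0.98 (SE 0.42, adjusted p = 0.573) in sh004 cells, none of them called. Within the 6 same-batch pairs VIM was lower at day 7 by 1.23- to 3.27-fold.

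SNAI2 encodes the zinc finger repressor SLUG. It read 4.31, 2.59 and 6.52 RPKM in control day 0 and 1.6 and 1.73 in control day 7, again without overlap. In sh003 cells day 0 gave 9.17, 4.67 and 6.27, overlapping with 3.94, 2.71 and 5.86 from day 7. In sh004 cells day 0 gave 6.64 and 7.54, and day 7 gave 2.80 and 1.52, with a gap between the days. In sh004 cells the change was -1.55 (SE 0.43, adjusted p = 0.268), and with the batch block it was -1.55 (SE 0.33, limma adjusted p = 0.0456), a call that stayed in 5 of the 15 block fits that leave out 1 library each. In control cells it was -1.12 (SE 0.39, adjusted p = 0.218).

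TWIST1 differed more by batch than by day. Control day 0 read 171, 90.1 and 71.0 RPKM in batches 1, 2 and 3, and control day 7 read 120.4 and 45.5 in batches 1 and 2. In sh003 cells the day 0 libraries read 76.2 (batch 3), 209 (batch 1) and 146 (batch 2), and the day 7 libraries 112 (sh1 batch 2), 148 (batch 1) and 94.5 (sh2 batch 2). For sh004, day 0 gave 104 and 109 and day 7 gave 81.3 and 71.7. The batch 1 libraries were the highest of their group in control and sh003 cells on both days. In control cells the change was -0.47 (SE 0.50, adjusted p = 0.779), and with the batch block -0.81 (SE 0.21, adjusted p = 0.0458), a call in a comparison where the block fit calls 7.68% of genes. That call stayed in 3 of the 15 block fits that leave out 1 library each.

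WWTR1, the YAP1 paralog, was the member that was higher at day 7 in every pair. It reached an RPKM of 1 only in 4 knockdown libraries of day 7 and entered the test through them, so its direction is given as a description. In control cells day 0 gave 0.350, 0.213 and 0.591 RPKM, and day 7 gave 0.735 and 0.326. In sh003 cells day 0 gave 0.823, 0.814 and 0.490, and day 7 gave 1.28, 1.46 and 0.668. In sh004 cells day 0 gave 0.346 and 0.40, and day 7 gave 3.95 for sh1, far above the 1.05 of sh2. The sh004 change was 1.59 (SE 0.48, adjusted p = 0.328; 0.0806 with the batch block), and the ratio of day 7 to day 0 within pairs ran from 1.36 to 11.4. With the block the change was 2.35 without the sh2 library of day 7 and 0.83 without the sh1 library. Each leaves 1 library in the arm, whose spread is taken from the other groups.

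ZEB1, which binds E-boxes as SNAI2 does, hardly varied. It read 8.14, 8.01 and 8.01 RPKM in control day 0 and 7.48 and 8.67 in control day 7. In sh003 cells day 0 gave 7.32, 6.30 and 8.56, and day 7 gave 6.63, 5.47 and 7.49. In sh004 cells day 0 gave 8.36 and 8.43, and day 7 gave 5.28 and 8.18. It was lower at day 7 in 5 of the 6 pairs, and in 6 of 6 with median-ratio scaling, by at most 1.58-fold. Exons of the antisense gene ZEB1-AS1 overlap ZEB1 by 366 bases, and the strand setting of the counting is not given in the sources used here.

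YAP1, FOSL1 and FOSL2 had no common direction between days. YAP1 read 5.48, 2.92 and 11.3 RPKM in control day 0 and 6.67 and 3.02 in control day 7, where the batch 3 library is the highest. Its sh003 libraries were close together, at 11.1, 10.6 and 12.1 on day 0 and 11.5, 9.60 and 11.8 on day 7, and its sh004 libraries read 9.33 and 6.84, then 10.6 and 4.55. FOSL1, a Fos-family subunit of AP-1, read 1.43, 0.433 and 1.35 in control day 0 and 1.72 and 1.39 in control day 7. The groups of each gene overlapped between days in control cells. In the knockdowns FOSL1 read 3.25, 3.28 and 1.46 in sh003 day 0, 2.27, 3.18 and 0.859 in sh003 day 7, 1.01 and 1.48 in sh004 day 0, and 3.16 and 0.581 in sh004 day 7. FOSL2, its paralog, read 3.35, 2.30 and 6.58 in control day 0 and 5.44 and 2.28 in control day 7. It read 18.4, 13.7 and 6.39 in sh003 day 0 against 5.10, 6.31 and 4.79 in sh003 day 7, a gap with every day 7 library lower, and 4.67 and 3.74 against 13.8 and 4.33 in sh004 cells. The sh003 change of FOSL2 was -1.07 (SE 0.50, adjusted p = 0.287). The sh1 library of sh004 day 7 thus had the highest WWTR1 of all monolayers and the second highest FOSL2.

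These counts rest on 8 tested members and are given beside the shares of all genes. Without the block limma called 0 of 8 members in each day comparison, where it called 0.956% of 19461 genes in control, 2.35% in sh003 and 0.38% in sh004 cells. In the same order 2, 1 and 3 members had an unadjusted p under 0.05, beside 14%, 18.5% and 8.23% of all genes. Voom on the recovered reads also called 0 members. With the block limma called 1, 0 and 1 member, against 7.68%, 14.3% and 2.11% of genes. Both calls were lower values. The block fit called 5.03% of genes higher and 2.65% lower at day 7 in control, 8.65% and 5.63% in sh003, and 1.42% and 0.683% in sh004 cells. Without the block 0.704% were higher and 0.252% lower in control cells. Of all genes tested, 12.7% were lower at day 7 in all 6 pairs (3 of 8 members) and 17.7% were higher in all 6 (1 of 8 members, WWTR1, from whose entry through day 7 libraries nothing is read). The difference of the day effect between sh003 and control, and between sh004 and control, called 0 of 8 members and 0% of genes in limma. In each, 0 members had an unadjusted p under 0.05, beside 1.46% of all genes. In this family 1.38 for WWTR1 in sh004 cells (SE 0.65, adjusted p = 1.000) and -1.0 for FOSL2 in sh003 cells (SE 0.75, adjusted p = 1.000) were the values of at least 1 in size.

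**Figure D2:**
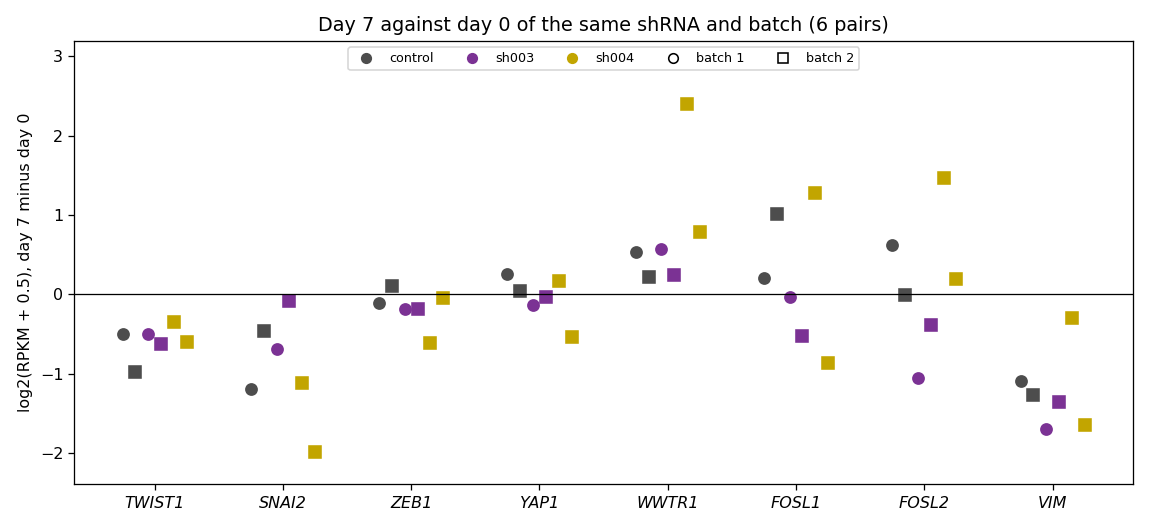
Difference of log2(RPKM + 0.5) between day 7 and day 0 within the 6 pairs of the same shRNA and batch, for 8 members; colour gives the shRNA group and shape the batch. TWIST1, SNAI2 and VIM lie below 0 in 6 of 6 pairs and WWTR1 above 0 in 6 of 6, while YAP1, FOSL1 and FOSL2 split 3 to 3.

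The knockdowns tended to hold more of most members than the control of their batch, and no member was called in a knockdown comparison in monolayers, with or without the block. FOSL2, WWTR1 and TWIST1 were higher than the control of their batch in 10 of 10 monolayer pairs, a pattern that 1.89% of tested genes share; WWTR1 entered the test only through knockdown libraries, so its place in this count supports nothing. FOSL2 and WWTR1 were also higher in 4 of 4 sphere pairs, which 0.709% of tested genes share in all 14 pairs. The rule was chosen after the values were seen, and the 14 pairs use only 6 control libraries.

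At day 0, FOSL2 in sh003 cells was 2.78- to 4.10-fold the control of its batch in the 3 pairs. The fitted difference was 1.53 (SE 0.50, adjusted p = 0.651), and with the block 1.53 (SE 0.33, adjusted p = 0.110); over the block fits that leave out 1 library the adjusted p ran from 0.00686 to 0.521, and it was under the threshold only without either of the sh004 day 7 libraries, which are not part of this comparison. FOSL1 was 2.30- to 3.36-fold higher in the same pairs (1.02, SE 0.51, adjusted p = 0.919). FOSL1, FOSL2, SNAI2, TWIST1 and WWTR1, 5 of 8 tested members, were higher in all 3 pairs, beside 13.4% of tested genes. VIM was level with its control in batch 3, with a ratio of 0.996, and 2.95-fold higher in batch 2 (0.81, SE 0.34, adjusted p = 0.833). YAP1 followed VIM in this: its ratio was 0.984 in batch 3 and 4.12 in batch 2, where the control library holds the lowest YAP1 of all monolayers. In sh004 cells at day 0 each of the 8 members was above the batch 2 control in both hairpins, a state of 28.7% of tested genes, and both pairs share that 1 control library. SNAI2 was 2.56- and 2.91-fold higher there and YAP1 3.19- and 2.34-fold. Between the knockdowns at day 0, FOSL2 was higher in sh003 by 1.39 (SE 0.56, adjusted p = 0.665).

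At day 7, YAP1 in sh003 cells was 1.44- to 3.91-fold its controls (1.18, SE 0.48, adjusted p = 0.623), VIM 1.2- to 3.60-fold (1.07, SE 0.38, adjusted p = 0.588) and SNAI2 1.70- to 3.38-fold (1.06, SE 0.39, adjusted p = 0.593). With TWIST1, FOSL2 and WWTR1, these genes made 6 of 8 tested members higher in all 3 sh003 pairs of day 7, a state of 18.6% of tested genes. The sh1 and sh2 libraries of batch 2 share 1 control there. In sh004 cells, WWTR1 was 3.22- and 12.1-fold the batch 2 control (1.38, SE 0.48, adjusted p = 0.539) and FOSL2 1.90- and 6.08-fold (1.04, SE 0.61, adjusted p = 0.733). The larger value of each was the sh1 hairpin. WWTR1 passed the filter only through day 7 knockdown libraries, so its difference and its place among the 6 are given as a description. With the block and without the sh2 library the values were 2.35 for WWTR1 and 2.17 for FOSL2. Without the sh1 library they were 0.83 and 0.60, the lowest over the fits that leave out 1 library, and neither was called. Either way 1 library stands for the knockdown and its spread is taken from the other groups. ZEB1 lay below its control in 5 of 5 pairs, by at most 1.64-fold, and FOSL1 was on both sides. The share of all genes lower in these pairs was not counted. Their median log2 difference over all tested genes was also negative in each, from -0.09 to -0.03, and all but the batch 1 pair share the batch 2 control.

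Over the 6 monolayer knockdown comparisons limma called 0 of 8 members in each. It called 0.00514% of genes for sh003 against control at day 0, 0% at day 7, 0% for sh004 against control at both days, and 0.00514% and 0.0206% for sh003 against sh004 at days 0 and 7 (0.0154% higher at day 7). Members with an unadjusted p under 0.05 numbered 2, 3, 0, 1, 1 and 0 in that order of sh003 against control, sh004 against control and sh003 against sh004, day 0 before day 7. The shares of all genes with such a p were 5.78%, 7.22%, 1.94%, 8.04%, 7.24% and 12% in the same order. By voom on the recovered reads the calls were 0 in all 6. With the block limma called 0.252% and 0.00514% of genes for sh003 at days 0 and 7, 0% and 0.226% for sh004, and 0.00514% and 0.714% between the knockdowns, and 0 members in each.

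**Figure D3:**
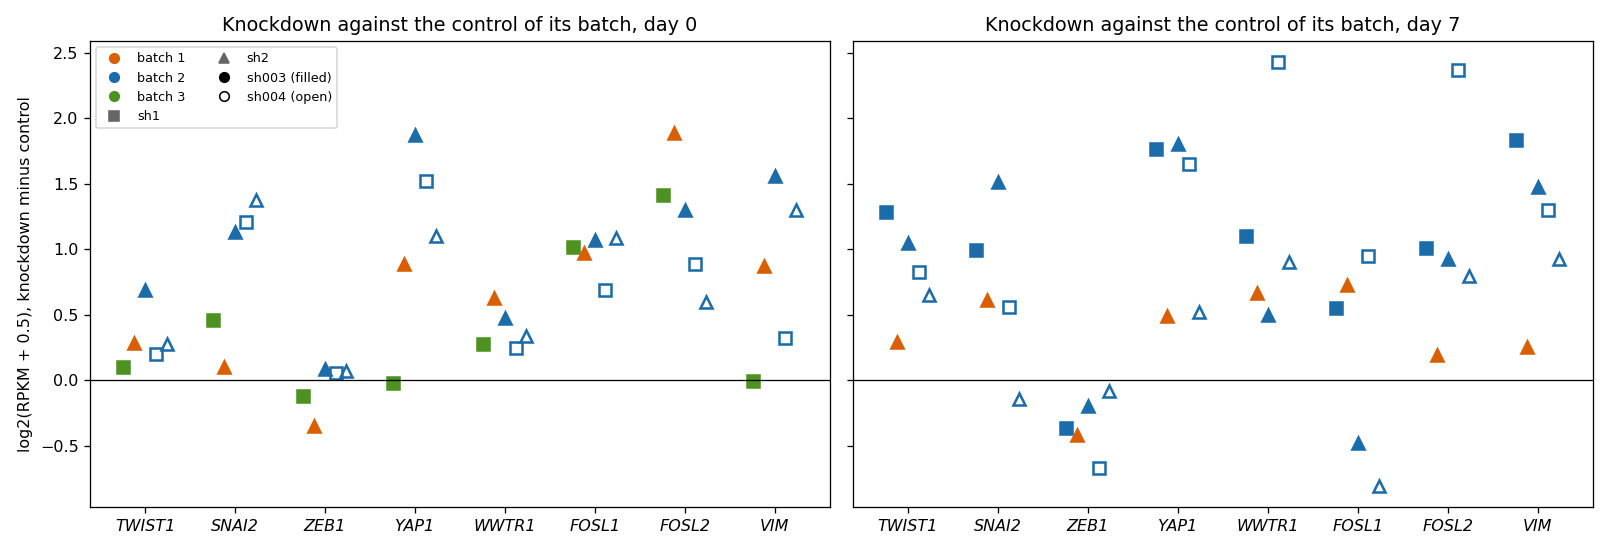
Difference of log2(RPKM + 0.5) between each knockdown library and the control library of its batch at day 0 (left) and day 7 (right); filled marks are sh003, open marks sh004, colour is the batch and shape the hairpin. FOSL2, WWTR1 and TWIST1 lie above 0 in all 10 pairs, and the blue batch 2 marks, which all share a single control library within a panel, hold the largest YAP1 and SNAI2 values.

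Across the 15 monolayers SNAI2 followed VIM: Pearson's r on log2(RPKM + 0.5) was 0.814 (Spearman 0.800), 0.782 without the 2 libraries farthest in SNAI2, and 0.813 within the 9 libraries of batch 2. ZEB1 and WWTR1 ran opposite, with r = -0.853 (Spearman -0.757), -0.676 without the 2 libraries farthest in ZEB1, and -0.915 in batch 2. FOSL1 and FOSL2 stood at 0.757 (Spearman 0.675), 0.650 and 0.681 in the same 3 readings. TWIST1 and VIM gave 0.528 over all 15 libraries, 0.103 without the 2 farthest in TWIST1 and 0.948 in batch 2, where the batch 1 libraries with high TWIST1 are absent. The libraries share batches, days and hairpins, so these values describe the set and 28 such pairs were computed.

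Among 12846 tested genes of mean RPKM at least 2, the genes most like each member over these 15 libraries were found by the same r. For VIM they were PRR16 (0.908), PKM (0.901) and DAP (0.889), and for SNAI2 EGLN3 (0.927), STIM2 (0.918) and BICC1 (0.911). YAP1 was closest to SEMA3C (0.947), MRC2 (0.919) and VASN (0.919), and WWTR1 to PSMB10 (0.902), RARRES1 (0.902) and SLC35A2 (0.894). FOSL1 was closest to CCN1 (0.879), a textbook YAP1 target, then FAM131B-AS2 (0.870) and CDC42EP1 (0.868); FOSL2 was closest to ST6GALNAC5 (0.925), NINJ1 (0.915) and SPHK1 (0.907). TWIST1 was closest to NIBAN2 (0.932), PPP1R9B (0.929) and CCDC9 (0.922), and ZEB1 to CENPJ (0.910), RSRC1 (0.904) and PGBD1 (0.894). No member was among the 3 genes nearest to another.

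The genes around the members were read from lists. Among paralogs, PRRX2 was measurable (mean 4.55 RPKM in monolayers) where PRRX1 was not, and it fell at day 7 in control cells by 2.65 on the log2 scale (SE 0.52, adjusted p = 0.0391), the 1 call among 6 tested paralogs. With the block it also fell in sh003 cells, by 1.56 (adjusted p = 0.0209), and SNAI3 rose there (1.10, adjusted p = 0.0182). ZEB2 and SNAI1, the other E-box factors of these families, averaged 5.05 and 12.1 RPKM and were not called in monolayers. Among 15 tested other mesenchymal state factors 0 were called in any monolayer comparison without the block, and the median change was 0.35 for sh003 against control at day 0 and 0.37 at day 7, beside -0.06 and -0.09 over all genes. For sh004 against control the medians were -0.02 and 0.07, beside -0.07 and -0.15. With the block SMAD3, a TGF-beta effector, rose at day 7 in control (1.6, adjusted p = 0.0426) and sh003 cells (1.62, adjusted p = 0.0205). NOTCH2, a receptor that can drive the mesenchymal state, rose in sh003 cells (1.66, adjusted p = 0.0334). EGR3, an immediate early factor, fell there (-1.23, adjusted p = 0.00733) and was higher in sh003 than in control cells at day 0 (1.38, adjusted p = 0.0309).

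For AP-1 partners, 0 of 9 tested were called without the block. With it ATF3, a stress-induced partner, rose at day 7 in control (1.29, adjusted p = 0.0191) and sh004 cells (1.25, adjusted p = 0.0449), and JUN, the main dimer partner of the Fos family, fell in sh003 cells (-1.45, adjusted p = 0.0166), where FOSL2 was also lower. Of 14 Hippo pathway and TEAD genes 0 were called without the block. With it TEAD3 rose in control (0.99, adjusted p = 0.0473) and sh003 cells (1.12, adjusted p = 0.0157), and the kinase STK3 rose in control cells (0.74, adjusted p = 0.0389). Of 17 tested YAP1 and WWTR1 targets, 2 were called without the block, both in sh003 cells at day 7, where 2.35% of all genes were called: IGFBP3, which binds insulin-like growth factors, fell by 4.02 (SE 0.52, adjusted p = 0.00289) and MYOF, a membrane repair protein, rose by 2.14 (SE 0.49, adjusted p = 0.0489). With the block IGFBP3 also fell at day 7 in control cells (-2.32, adjusted p = 0.00975) and was higher in sh003 than in control cells at day 0 (2.04, adjusted p = 0.0407). ASAP1 and ARHGEF17 rose at day 7 in control cells with the block, by 0.84 and 0.72 (adjusted p = 0.0269 and 0.0182). CCN1, a usual readout of the co-activators, averaged 24.5 RPKM in monolayers and was not called, and CCN2, another, averaged 0.138 RPKM and was not tested.

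Mesenchymal effectors, the matrix, adhesion and contractile genes, gave 0 calls of 16 tested without the block. All 16 estimates for sh003 against control at day 0 were positive, with a median of 0.87 beside -0.06 over all genes. They come from the same libraries, so they are not 16 separate signs, and the share of positive estimates over all genes was not counted. For sh004 against control at day 0, 5 of 16 were positive, with a median of -0.13 beside -0.07 over all genes. The fibroblast markers COL1A1, COL1A2 and COL3A1 are on both lists, and the summed fibroblast markers were 208 to 402 RPKM in sh003 day 0 beside 88.4 to 369 in control day 0. With the block LGALS1, a galectin abundant in mesenchymal cells, fell at day 7 in sh003 cells (-0.98, adjusted p = 0.0365). Of 14 epithelial junction genes, 4 could be tested in monolayers; the cadherin CDH1, a classic target of SNAI and ZEB repression, stayed at or below 0.152 RPKM, and OCLN rose with the block in control cells (0.91, adjusted p = 0.0331). Among 7 tested intermediate filament genes 0 were called without the block. With it LMNA, the nuclear lamin gene, fell at day 7 by 1.37 in control, 0.85 in sh003 and 1.48 in sh004 cells (adjusted p = 0.0171, 0.0407 and 0.0256), and SYNM, a filament protein that pairs with vimentin, fell by 1.19, 0.83 and 1.77 (adjusted p = 0.0305, 0.0491 and 0.0125). NES, a progenitor filament gene, rose in sh003 cells (0.86, adjusted p = 0.0195).

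The adrenergic factors, the opposite program, had negative medians at day 7. Their median change was -0.97 in control, -0.82 in sh003 and -0.56 in sh004 cells, beside 0.15, 0.05 and 0.02 over all genes, and 0 of 12 were called without the block. For the other mesenchymal state factors the day 7 medians were 0.13, 0.01 and -0.01 in the same order. With the block GATA3 fell in control (-1.87, adjusted p = 0.0214), sh003 (-1.90, adjusted p = 0.00897) and sh004 cells (-2.31, adjusted p = 0.0183), and GATA2 fell in the same 3 groups by 1.74, 1.17 and 1.95. In sh003 cells TFAP2B and HAND1 fell too, by 1.51 and 2.45 (adjusted p = 0.0353 and 0.0392).

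In spheres ZEB1 separated the knockdowns. It read 5.91 RPKM in the control sphere, 6.16 and 9.84 in the sh003 spheres and 2.13 and 2.63 in the sh004 spheres, so both sh004 libraries lie below the other 3. It was higher in sh003 than in sh004 by 1.53 (SE 0.28, limma adjusted p = 0.0113), the 1 call among 5 tested members, in a comparison that calls 39.9% of 14711 genes, 23.1% as higher. The call is lost without either sh004 library (adjusted p = 0.0535 without sh1, 0.0545 without sh2), without the filter on low values (adjusted p = 0.0938) and with the RPKM as deposited (adjusted p = 0.367). Against the control sphere ZEB1 in sh004 was -1.16 (SE 0.34, adjusted p = 0.147). The control group is 1 library, whose spread was taken to equal that of the knockdowns.

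As background to ZEB1, the stretch before its first listed start in the RefSeq promoter table (GRCh38.p14, chr10:31318167-31318416, plus strand) is shown with the E-box CAGGTG, read on both strands, in capitals.
ZEB1 promoter: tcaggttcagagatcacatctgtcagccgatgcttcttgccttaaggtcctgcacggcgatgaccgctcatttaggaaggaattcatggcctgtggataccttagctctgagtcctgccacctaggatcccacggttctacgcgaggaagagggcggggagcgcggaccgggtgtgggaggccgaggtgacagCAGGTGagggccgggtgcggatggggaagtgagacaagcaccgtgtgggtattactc
The match begins 57 bases before the start. The table lists further starts of ZEB1, and some of their windows hold these letters while others do not. CAGGTG, the letters bound by SNAI and ZEB proteins, occurred in the 250 bases before the start in 17.5% of 35116 promoters of the table. Of the 7 members with an entry there, it occurred in ZEB1 alone. The shares here are per promoter and the member counts per gene. The 7 members have 14 promoters in the table, and ZEB1 has more of them than any other member. The TEAD letters GGAATG occurred in YAP1 alone (11.9% of promoters) and the AP-1 letters TGANTCA in none of the 7 (6.57% of promoters). Such matches are a description of letters and not of binding.

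The other sphere members were not called. YAP1 read 2.02 in the control sphere, 4.68 and 6.67 in sh003 and 3.81 and 2.53 in sh004, lowest in the control. Its difference was 1.27 for sh003 against control (SE 0.35, adjusted p = 0.195) and 0.75 for sh003 against sh004 (SE 0.29, adjusted p = 0.0799). FOSL2 read 0.961 in the control sphere, 2.28 and 1.31 in sh003 and 3.46 and 2.57 in sh004, so the control was again the lowest, and sh004 against control gave 1.25 (SE 0.39, adjusted p = 0.157). VIM ran 44.1, 50.9, 77.4, 56.5 and 58.6 over control, sh003 sh1, sh003 sh2, sh004 sh1 and sh004 sh2, and TWIST1 73.3, 82.2, 98.1, 78.6 and 51.4. WWTR1 stood at 0.181, 0.866, 0.257, 0.341 and 0.515 in the same order and FOSL1 at 0.259, 0.339, 0.458, 0.777 and 0.190. For sh003 against control limma called 0 of 5 members and 0% of genes, and for sh004 against control 0 of 5 and 0.129% (0.122% higher, 0.0068% lower). An unadjusted p under 0.05 was found for 1 member in the first, beside 19.1% of all genes, and for 2 in the second, beside 22.2%. Voom on the recovered reads called 0 members in both.

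SNAI2 was scarce in spheres, where it did not pass the filter. It had 3 reads in the control sphere (0.0339 RPKM, exact 95% Poisson interval 0.00698 to 0.0990), 13 and 34 in the sh003 spheres (0.174 and 0.537 RPKM) and 85 and 51 in the sh004 spheres (0.600 and 0.800 RPKM). The ratio to the control sphere was 5.13 (exact 95% interval 1.41 to 28.0) and 15.8 (4.98 to 80.6) for sh003 and 17.7 (5.86 to 87.6) and 23.6 (7.64 to 118) for sh004. These intervals cover counting error only, and 1 control library gives no test of the condition. PRRX1 had at most 14 reads and MEOX2 none in a sphere.

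**Figure D4:**
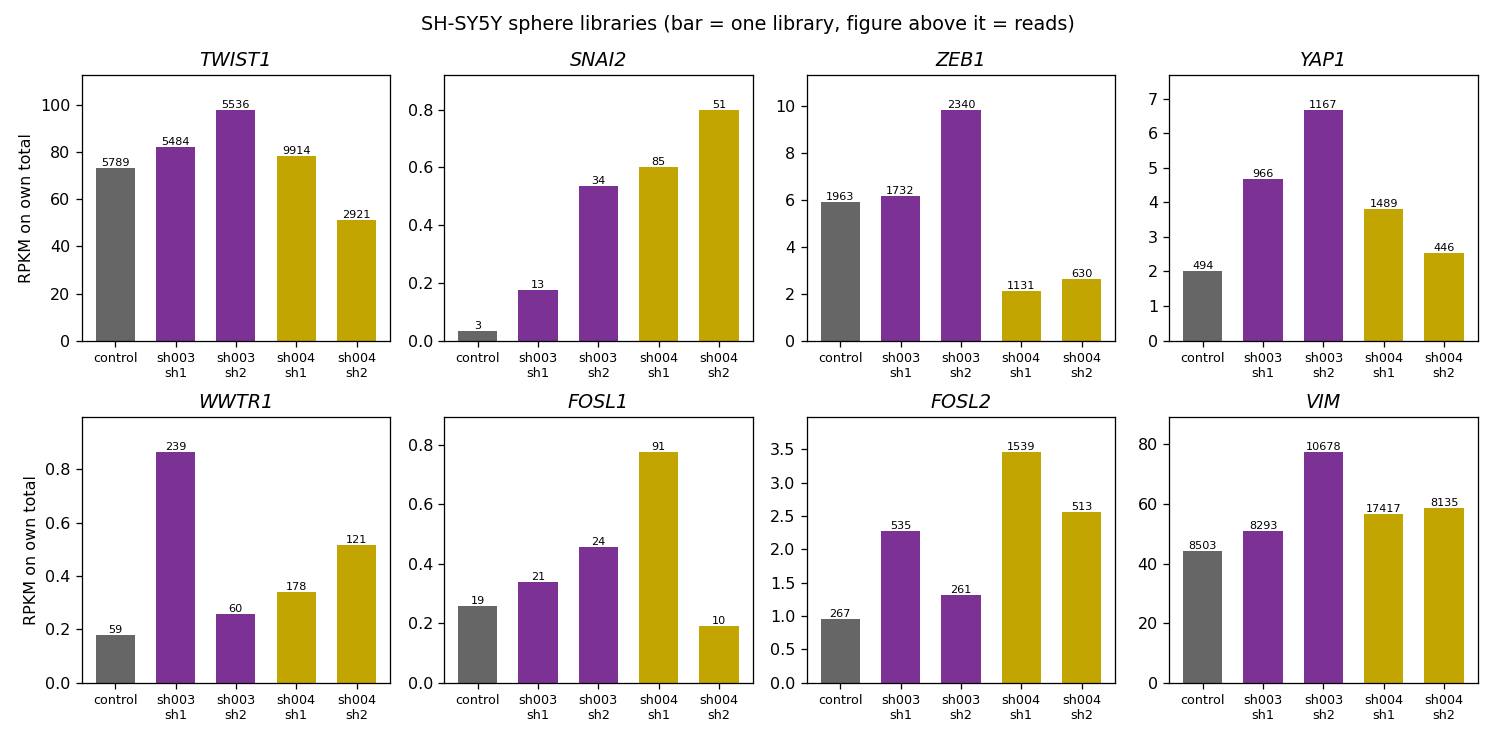
RPKM of the 8 members in the 5 SH-SY5Y sphere libraries, computed on each library's own total; each bar is one library and the number above it is its reads. ZEB1 is lowest in both sh004 spheres and SNAI2 has 3 reads in the control sphere.

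Around ZEB1, other genes differed between sh003 and sh004 spheres too. Of 13 tested Hippo and TEAD genes 7 were higher in sh003 and 0 lower, among them TEAD1 (2.32, adjusted p = 0.00867), the kinase LATS1 (1.62, adjusted p = 0.00998) and the kinase adaptors MOB1A (1.64) and MOB1B (1.86); the median was 0.73 beside 0.13 over all genes. Of 9 AP-1 partners 4 were lower in sh003 and 0 higher: BATF3 (-2.0), JDP2 (-1.98), JUND (-1.54) and JUN (-0.85). Mesenchymal effectors were split, 6 lower and 1 higher of 14, with the matrix gene TNC (-2.70), LGALS1 (-1.87) and ACTA2 (-1.39) lower and the cadherin CDH2 (0.72) higher. ZEB2, the paralog of ZEB1, was higher by 0.86 (adjusted p = 0.0387). Other mesenchymal state factors gave 4 higher and 2 lower of 14, YAP1 and WWTR1 targets 4 and 1 of 13, intermediate filament genes 1 and 1 of 7, and adrenergic factors 4 and 2 of 12. Over all genes 23.1% were higher and 16.8% lower in this comparison. IGFBP3, higher in sh004 than in control spheres by 5.54 (SE 0.34, adjusted p = 0.0168), was the 1 call among the list genes against the control sphere.

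In KELLY cells the SOX9 siRNA library held less ZEB1, FOSL2 and VIM. ZEB1 had 4721 reads (21.6 RPKM) with the control siRNA and 2622 (12.8 RPKM) with the SOX9 siRNA, a ratio of 0.589 (exact 95% interval 0.562 to 0.618). FOSL2 went from 6.08 to 4.35 RPKM, a ratio of 0.715 (0.651 to 0.786), and VIM from 46.9 to 35.5 RPKM, a ratio of 0.756 (0.727 to 0.787). TWIST1 (78.3 and 81.2 RPKM, ratio 1.04) and SNAI2 (3.08 and 3.21 RPKM, ratio 1.04) had intervals that include 1. With 1 library a group there is no test, and the intervals cover counting error only. Of the members ZEB1 alone was past 1.5-fold on the RPKM + 0.5 scale; of 13070 genes at an RPKM of at least 1 in both libraries, 3.24% were lower by that much and 7.62% changed by it in either direction. WWTR1 read 0.275 and 0.208 RPKM, FOSL1 0.416 and 0.397, PRRX1 had 0 and 1 read and MEOX2 none.

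Of 9 mesenchymal effectors at an RPKM of 1 in both KELLY libraries, 4 were lower past 1.5-fold and 0 higher, and the median log2 ratio was -0.42 beside 0.04 over all genes. The matrix protein gene SPARC went from 14.9 to 3.75 RPKM and the cadherin CDH11 from 7.19 to 3.93. Among the Fos and Jun family, FOS had 24 reads (0.291 RPKM) with the control siRNA and 7656 (98.5 RPKM) with the SOX9 siRNA, and FOSB 10 and 1357 reads, while JUNB went from 22.3 to 87.1 RPKM, 1 of 2 AP-1 partners higher past 1.5-fold of 8 measurable in both. JUN read 31.8 and 36.0 RPKM and JUND 55.4 and 46.6. The immediate early factor EGR3 had 3 and 416 reads. None of the 11 adrenergic factors measurable in both was past 1.5-fold.

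The cell lines differed most in YAP1, which had 1 read in each KELLY library (0.00624 and 0.00662 RPKM, with upper 95% Poisson limits of 0.0347 and 0.0369), against 410 to 2527 reads a library in SH-SY5Y monolayers (2.92 to 12.1 RPKM) and 446 to 1489 in spheres. WWTR1 in KELLY, at 0.275 and 0.208 RPKM, lay at the low end of the monolayers, whose lowest library read 0.213. Of the TEAD factors, the DNA-binding partners of both, TEAD1 averaged 21.2 RPKM in monolayers and 8.86 in spheres. TEAD2 averaged 53.8 and 42.3, TEAD3 11.3 and 5.66, and TEAD4 11.2 and 6.13. In KELLY (control, then SOX9 siRNA) TEAD1 read 29.5 and 20.3, TEAD2 1.00 and 0.308, TEAD3 5.66 and 2.75, and TEAD4 0.518 and 0.660. TEAD3 was the 1 gene lower past 1.5-fold of 10 Hippo and TEAD genes measurable in both KELLY libraries, beside 3.24% of genes. ZEB1 was above every SH-SY5Y library in both KELLY libraries. SNAI2 levels of 3.08 and 3.21 in KELLY fell inside the monolayer range of 1.52 to 9.17 and above the sphere maximum of 0.800. Monolayer, sphere and KELLY libraries stand in separate tables, so these levels are set side by side and no difference between tables was tested.

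**Figure D5:**
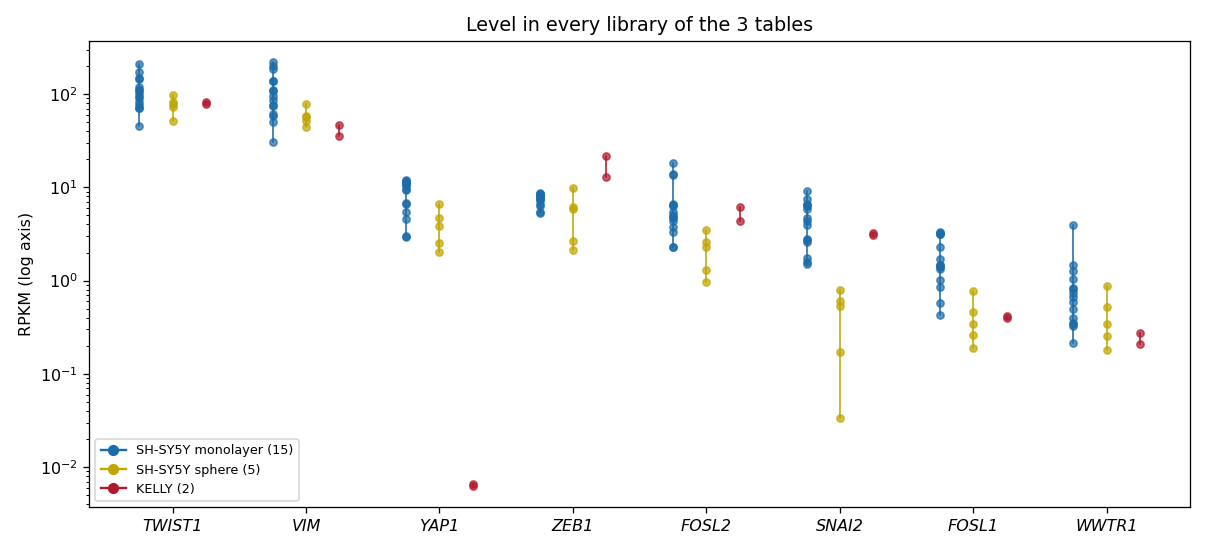
RPKM, on a log axis, of 8 members in all 22 libraries: SH-SY5Y monolayers (15), SH-SY5Y spheres (5) and KELLY cells (2); each point is a library and the line spans lowest to highest. YAP1 in KELLY sits at 1 read a library, SNAI2 in spheres is below every other SNAI2 value, and TWIST1 stays between 45.5 and 209 RPKM in all 3 sets.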

How the data were processed

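Total RNA libraries (stranded kit with removal of ribosomal RNA) were aligned and counted by the authors; TopHat, featureCounts, Subread and hg19 are named per the submitters' processing notes, and versions, strand setting and annotation release are not given in the sources used here. The deposited values are RPKM, the unit of all 3 tables. Whole read numbers were worked back from the RPKM and the gene lengths (100% of values within 0.01 of a whole number). In the deposited sphere RPKM 10 library totals rotate from gene to gene, and 10.1% of values rest on their own library's total, so sphere RPKM were recomputed on own totals. Of 63677 identifiers 52181 matched a symbol.

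Genes at an RPKM of at least 1 in at least 2 libraries entered limma 3.58.1 (R 4.3.3) with a trend on log2(RPKM + 0.5), all groups of a table in 1 fit (9 residual degrees of freedom in monolayers, 2 in spheres). Calls are at a Benjamini-Hochberg adjusted p under 0.05 over all genes. Because the tables hold RPKM, count models were not the main test. On simulated data, for sh003 against control at day 7, 63.3% of genes changed by 1 on the log2 scale were recovered (17465 genes, 9 false calls). Of those changed by 2, 92.8% were recovered. For sh004 against control spheres the shares were 35% and 90.9% (14338 genes, 22 false calls). The simulated libraries had no batch effect and a single fixed spread, so these shares do not give the power in the real libraries.

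The titles give batches. Same-batch libraries of control and sh003 cells deviated together (16 pairs, r = 0.716 to 0.942), so the batch served as a replicate block in a second fit. Members are named with every library's level, and a change is printed at an unadjusted p under 0.05, a log2 size of at least 1, or a call with the block; from each list at most 4 genes a comparison are named (smallest p, mean RPKM of at least 2), and MYOF, EGR3, SNAI3, OCLN, the TEAD factors' levels and the KELLY list genes were added after their values were seen. Members and lists were chosen with earlier results of these data known.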

Additional observations from a re-analysis of the deposited data

How the results depend on the processing

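Of the member changes printed, 1 reversed: without the batch 2 control library of day 7, TWIST1 at day 7 in control cells was 0.22 in place of -0.47. Its range over leaving out each library was -1.17 to 0.22, and -1.18 to -0.43 with the replicate block. The replicate block (batch of the titles) gave 1 member called in place of 0 at day 7 in control cells (TWIST1) and 1 in place of 0 in sh004 cells (SNAI2), and so did 2 alternatives chosen after seeing the data, voom with the block (1 and 1) and median-ratio scaling with the block (1 and 1); the pairing changed no other call of a member. Leaving out each library with the block gave 0 to 1 member called at day 7 in control and in sh003 cells, 0 to 2 in sh004 cells, 0 to 1 for sh003 against control at day 0 and 0 to 2 for sh004 against control at day 7. For sh003 against sh004 in spheres the count was 0 with the RPKM as deposited, 0 with no filter, and 0 to 1 when 1 library is left out (0 without either sh004 library). The cause was not tested. Voom ran on recovered reads without normalization factors. Median-ratio scaling moved the median change of all genes from 0.15 to 0.03 at day 7 in control cells, from -0.15 to -0.04 for sh004 against control at day 7 and from -0.16 to -0.05 in spheres.

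Depth limits PRRX1, MEOX2, SNAI2 in spheres and YAP1 in KELLY. Batch 2 holds every sh004 monolayer and 1 control library a day, batch 3 has no day 7 library, and sphere control and KELLY groups are single libraries.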
